A study of Mus musculus with 6 samples.

Results

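The genes described here are 10 markers of simple epithelia, chosen by name, with the results of these comparisons already known. They are the keratins Krt8, Krt18, Krt19 and Krt7, the adhesion proteins Epcam and Cdh1, and the claudins Cldn3, Cldn4, Cldn6 and Cldn7. Of these, 7 were listed among the 14667 genes with a value in at least 1 of the 2 deposited tables. Krt19, Krt7 and Cldn7 were in neither table. Every listed gene reached at least 0.5 FPKM in at least 1 library of its table, so a gene below that level in a table's libraries is not seen. FPKM, the unit of all levels below, scales fragments by transcript length and by library total, so levels can be set side by side between genes.

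RNA was measured by poly(A) RNA-seq in 6 libraries of NE-4C, a mouse brain line with the cell type neural stem cell in its labels and described as p53-deficient. All 3 groups lack the histone gene H3f3a and carry an HA-tagged H3.3 that was stably introduced, and each group has 2 libraries. Cbfa2t2_KO cells carry wild-type H3.3 and a further knockout of Cbfa2t2, a corepressor gene of the ETO family. H3.3K27M cells carry H3.3 with methionine at lysine 27, a substitution of diffuse midline gliomas, without the Cbfa2t2 knockout. H3.3WT cells carry wild-type H3.3, also without it. Whether each line is 1 clone, and which promoter drives the tagged H3.3, are not given in the sources used here. These comparisons ask how epithelial genes stood in each line.

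Library sums of FPKM lay between 363604 and 419389. The tables hold no counts. Among genes under 1 FPKM in a pair of libraries, at most 0.421% shared the most frequent ratio of the pair, so no step of whole reads was found and depth is unknown. H3.3WT values were the same in both tables for all 14082 shared genes, so both lines are set against the same 2 H3.3WT libraries. Column names mark the H3.3K27M libraries by an M alone. Cbfa2t2 stood at 1.02 and 0.769 FPKM in Cbfa2t2_KO, 2.02 and 0.855 FPKM in H3.3K27M, and 1.38 and 1.35 FPKM in H3.3WT, and the fit found no difference between Cbfa2t2_KO and H3.3WT past the threshold (limma adjusted p = 0.1526). Gene-level FPKM does not show whether these transcripts come from edited alleles. H3f3a, knocked out in all lines, stood at 82.1 and 66.3 FPKM in Cbfa2t2_KO, 77.3 and 66.8 FPKM in H3.3K27M, and 131 and 181 FPKM in H3.3WT. Both lines thus also differ from H3.3WT in this value. Whether the tagged H3.3 adds to it, and its part in the results, were not tested. Separate cultures behind the 2 libraries of a group are not stated in the labels, so SDs and p-values measure the spread between these libraries, which may be technical.

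Simple epithelia are held together by a few protein systems. Keratins are intermediate filament proteins that form obligate pairs of a type II and a type I chain, and KRT8 with KRT18 is the first pair made in the mouse embryo. CDH1 (E-cadherin) joins neighbouring cells through calcium-dependent binding, EPCAM is a surface glycoprotein of epithelia and embryonic stem cells, and claudins form the strands of tight junctions. Early neuroectoderm still carries CDH1 and later replaces it with CDH2 (N-cadherin). The repressors SNAI1, SNAI2, ZEB1 and ZEB2 bind E-box sequences in the promoter of Cdh1 and lower its expression in the epithelial to mesenchymal transition (EMT).

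The labelled cell type was checked against markers. Of 12 neural stem and progenitor markers, 9 were in both tables, and Sox1, Fabp7 and Olig2 were in neither. Their summed level was 110 and 105 FPKM in Cbfa2t2_KO, 115 and 117 FPKM in H3.3K27M, and 188 and 191 FPKM in H3.3WT. Members of this sum differed in pattern. Sox2 stood at 12.3 and 9.55 FPKM in Cbfa2t2_KO, 28.1 and 32.2 FPKM in H3.3K27M, and 30.9 and 34.4 FPKM in H3.3WT. Cdh2 was above H3.3WT in Cbfa2t2_KO, at 9.02 and 6.68 FPKM against 5.84 and 6.20 FPKM. Sox3, a progenitor transcription factor, stood at 47.4 to 92.9 FPKM over all libraries, while Pax6 did not exceed 0.926 FPKM. Of 10 pluripotency markers 9 were in both tables, led by Pou5f1, which encodes OCT4, at 919 to 1351 FPKM. The libraries hold RNA of both marker sets. In bulk RNA, fewer cells of a type and less RNA per cell cannot be told apart.

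Among the 7 listed genes, 5 were higher in both Cbfa2t2_KO and H3.3K27M than in H3.3WT without overlap of libraries, Krt8, Krt18, Epcam, Cldn4 and Cldn6. Cldn3 was lower in both lines and Cdh1 overlapped in both. Over all genes of the tables, 28.1% in Cbfa2t2_KO and 24.7% in H3.3K27M were higher than in H3.3WT without overlap, and 40.3% and 39.4% were lower. The genes were proposed with these differences known, so their values are given as a description, without p-values, and nothing is read from their share. The direction of the 5 higher genes and of Cldn3 was the same with values as deposited, after median-of-ratios scaling and after quantile normalization.

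**Figure D1:**
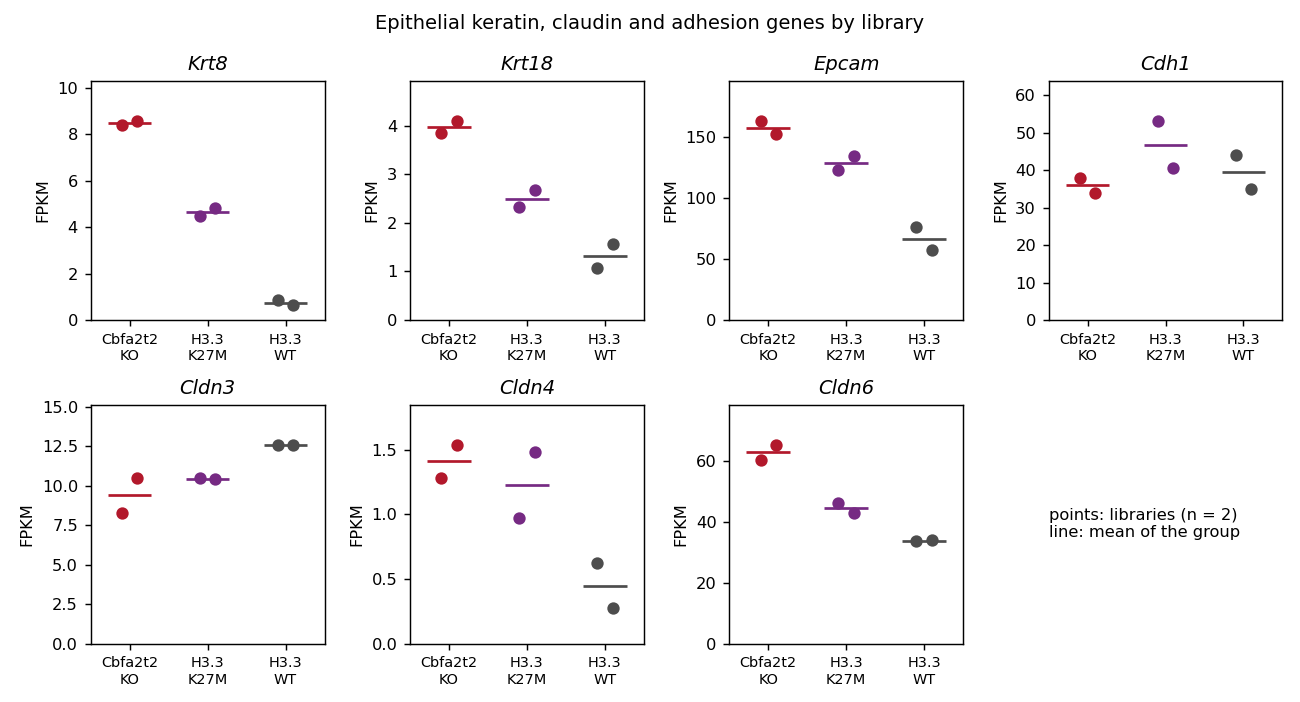
FPKM of the 7 listed genes in each library (y axes start at 0 and differ between genes), with Cbfa2t2_KO, H3.3K27M and H3.3WT from left to right; points are libraries and lines are means of 2 libraries. Krt8, Krt18, Epcam and Cldn6 show 3 separate levels, highest in Cbfa2t2_KO, whereas Cdh1 overlaps between H3.3WT and each other group.

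Krt8 and Krt18 lie on chromosome 15 of GRCm38, on opposite strands, with 23.7 kb and no other coding gene between them. Krt8, the type II chain, spans 101996698 to 102004482 on the reverse strand (up to 9 exons in a transcript), and Krt18, the type I partner, spans 102028180 to 102032027 on the forward strand (up to 7 exons). Promoter windows of this pair are shown because its members had the same order of levels over the groups. Both are given 5′ to 3′ on the gene's strand, from 250 bases before to 50 after the annotated start, from RefSeq on GRCm38.p6, and capitals mark the E-box CAGGTG or its reverse complement CACCTG.
Krt8 (chr15:102004293-102004592, minus strand): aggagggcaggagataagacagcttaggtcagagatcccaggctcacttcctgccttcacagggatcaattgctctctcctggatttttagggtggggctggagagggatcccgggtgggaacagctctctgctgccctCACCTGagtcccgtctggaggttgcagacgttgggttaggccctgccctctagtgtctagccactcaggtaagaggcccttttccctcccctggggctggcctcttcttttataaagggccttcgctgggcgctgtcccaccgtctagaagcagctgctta
Krt18 (chr15:102027966-102028265, plus strand): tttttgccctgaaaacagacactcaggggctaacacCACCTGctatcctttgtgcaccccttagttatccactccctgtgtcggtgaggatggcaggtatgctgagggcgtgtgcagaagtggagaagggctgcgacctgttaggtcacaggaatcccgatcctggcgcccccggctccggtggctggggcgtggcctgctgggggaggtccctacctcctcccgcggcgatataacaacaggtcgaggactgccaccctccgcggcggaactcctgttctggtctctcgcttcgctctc
Each window of the pair holds 1 E-box, at base 140 for Krt8 and base 37 for Krt18, counted from the 5′ end of the window.

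Krt8 stood at 8.39 and 8.58 FPKM in Cbfa2t2_KO, 4.48 and 4.84 FPKM in H3.3K27M, and 0.87 and 0.635 FPKM in H3.3WT. The 3 groups did not overlap, and Cbfa2t2_KO was the highest. The ratio of mean FPKM to H3.3WT was 11.3 in Cbfa2t2_KO and 6.2 in H3.3K27M. On the log2(FPKM + 1) scale, which understates changes of low genes, the difference from H3.3WT was 2.44 ± 0.098 in Cbfa2t2_KO and 1.69 ± 0.11 in H3.3K27M (SE, n = 2 each). With a pseudocount of 0.1 in place of 1, these were 3.346 and 2.495. Among listed genes its percentile was 63.8 in Cbfa2t2_KO, 50.9 in H3.3K27M and 12.3 in H3.3WT. Krt8 overlaps the gene model Gm36026, a copy named Krt8-ps exists, and the strand of the libraries is not stated, so reads of these could be part of its value.

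Krt18 stood at 3.86 and 4.10 FPKM in Cbfa2t2_KO, 2.33 and 2.67 FPKM in H3.3K27M, and 1.07 and 1.57 FPKM in H3.3WT. Its groups also fell in the order Cbfa2t2_KO, H3.3K27M, H3.3WT without overlap. The differences from H3.3WT were smaller than those of Krt8, with ratios of mean FPKM of 3.01 and 1.90 and log2 differences of 1.11 ± 0.16 in Cbfa2t2_KO and 0.60 ± 0.17 in H3.3K27M (SE, n = 2 each). The balance of the pair in RNA therefore differed between groups. Krt8 over Krt18 was 2.18 and 2.09 in Cbfa2t2_KO, 1.92 and 1.82 in H3.3K27M, and 0.813 and 0.405 in H3.3WT, where Krt18 had the higher FPKM. The H3.3WT ratios rest on low levels of both genes and differ between its 2 libraries. Protein was not measured here. The sum of both keratins was 12.2 and 12.7 FPKM in Cbfa2t2_KO, 6.82 and 7.51 FPKM in H3.3K27M, and 1.94 and 2.20 FPKM in H3.3WT.

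Krt8 and Krt18 were the only keratins listed in both tables. None of 38 further keratins searched by name was in either table, among them Krt5, Krt14 and Krt15, the keratins of basal and stratified epithelia, and Krt20 and Krt23. Krt19, the usual type I partner of Krt8 in many ducts, and Krt7, of glandular epithelia and trophoblast, were in neither table as well.

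**Figure D2:**
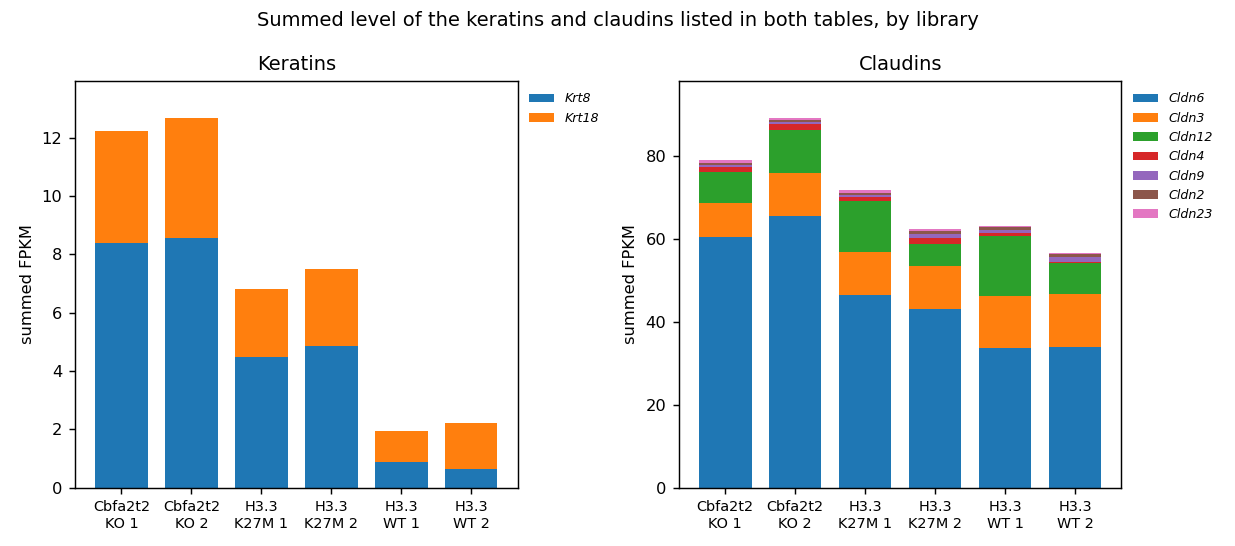
Stacked FPKM (y axes, from 0) of the keratins (left) and the claudins (right) listed in both tables, for each library from Cbfa2t2_KO at the left to H3.3WT at the right. The keratin sum is 12.2 and 12.7 FPKM in Cbfa2t2_KO and 1.94 and 2.20 FPKM in H3.3WT; Cldn6 is the most abundant claudin in each library.

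Epcam (chromosome 17, 87635979 to 87651129, forward strand, up to 10 exons) was the most abundant of the 7 genes. It stood at 163 and 152 FPKM in Cbfa2t2_KO, 123 and 134 FPKM in H3.3K27M, and 75.9 and 57.1 FPKM in H3.3WT. The 3 groups did not overlap. The mean was 157 ± 8.0 FPKM in Cbfa2t2_KO, 129 ± 8.1 FPKM in H3.3K27M and 66.5 ± 13 FPKM in H3.3WT (SD, n = 2 each). Ratios to H3.3WT were 2.37 in Cbfa2t2_KO and 1.93 in H3.3K27M, and log2 differences were 1.24 ± 0.21 and 0.95 ± 0.21 (SE). Even in H3.3WT the gene stood at percentile 93.8 of listed genes.

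Cdh1 (chromosome 8, 106603351 to 106670246, forward strand, up to 17 exons) was also well expressed but differed little. Its levels were 38.0 and 33.9 FPKM in Cbfa2t2_KO, 53.2 and 40.5 FPKM in H3.3K27M, and 44.0 and 34.9 FPKM in H3.3WT. The libraries of Cbfa2t2_KO and H3.3WT overlapped, as did those of H3.3K27M and H3.3WT. The log2 difference from H3.3WT was -0.12 ± 0.18 in Cbfa2t2_KO and 0.24 ± 0.25 in H3.3K27M (SE, n = 2 each). Median-of-ratios scaling brought the first to 0.004 and the second to 0.387, where H3.3K27M no longer overlapped H3.3WT.

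The claudins fell into several patterns. Cldn6 (chromosome 17, 23679249 to 23682446, forward strand, 3 exons), a claudin of embryonic epithelia and pluripotent cells, stood at 60.4 and 65.5 FPKM in Cbfa2t2_KO, 46.4 and 43.1 FPKM in H3.3K27M, and 33.7 and 34.1 FPKM in H3.3WT. Its groups did not overlap, with log2 differences from H3.3WT of 0.87 ± 0.058 in Cbfa2t2_KO and 0.39 ± 0.053 in H3.3K27M (SE, n = 2 each). Median-of-ratios scaling made these 1.002 and 0.54. Cldn6 made up 76.4% and 73.4% of the summed FPKM of 7 claudins in Cbfa2t2_KO, 64.7% and 69.0% in H3.3K27M, and 53.3% and 60.1% in H3.3WT. Cldn9, its neighbour 137 bases away on the other strand, made up 0.43% to 1.886% of that sum.

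Cldn4 and Cldn3, both receptors for Clostridium perfringens enterotoxin, are neighbours on chromosome 5, on opposite strands, with 39.3 kb and no other coding gene between them. Cldn4 spans 134945119 to 134946934 (reverse strand) and Cldn3 spans 134986214 to 134987472 (forward strand), each with 1 exon. Their promoter windows are shown because this pair of neighbours differed from H3.3WT in opposite directions. Windows and capitals are as above, and capitals also mark the AP-1 site TGANTCA, the target of FOS and JUN dimers.
Cldn4 (chr5:134946885-134947184, minus strand): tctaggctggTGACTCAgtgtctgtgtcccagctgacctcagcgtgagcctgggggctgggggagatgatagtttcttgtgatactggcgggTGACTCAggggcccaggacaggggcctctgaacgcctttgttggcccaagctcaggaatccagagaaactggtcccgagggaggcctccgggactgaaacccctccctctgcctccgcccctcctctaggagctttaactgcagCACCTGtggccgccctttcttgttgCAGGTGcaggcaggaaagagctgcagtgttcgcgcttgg
Cldn3 (chr5:134985964-134986263, plus strand): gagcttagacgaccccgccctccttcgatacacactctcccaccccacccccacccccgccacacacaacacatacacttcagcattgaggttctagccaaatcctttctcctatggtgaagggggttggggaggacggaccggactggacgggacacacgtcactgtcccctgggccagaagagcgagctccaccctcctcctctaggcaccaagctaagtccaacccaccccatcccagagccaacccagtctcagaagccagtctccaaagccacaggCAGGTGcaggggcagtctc
The Cldn4 window holds 2 E-boxes, at bases 237 and 262, and 2 AP-1 sites, at bases 11 and 93, while that of Cldn3 holds 1 E-box, at base 282, and no AP-1 site.

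Cldn4 was close to the tables' minimum, at 1.28 and 1.54 FPKM in Cbfa2t2_KO, 0.973 and 1.48 FPKM in H3.3K27M, and 0.622 and 0.274 FPKM in H3.3WT. Both lines were above H3.3WT without overlap and overlapped each other. The log2 difference from H3.3WT was 0.74 ± 0.19 in Cbfa2t2_KO and 0.62 ± 0.24 in H3.3K27M (SE, n = 2 each). Cldn3 stood at 8.27 and 10.5 FPKM in Cbfa2t2_KO, 10.5 and 10.4 FPKM in H3.3K27M, and 12.6 and 12.6 FPKM in H3.3WT. Both lines were below H3.3WT, by log2 differences of -0.39 ± 0.16 in Cbfa2t2_KO and -0.25 ± 0.006 in H3.3K27M. In H3.3K27M this was -0.112 with median-of-ratios scaling and -0.069 with quantile normalization, so its size rests on the scaling. Cldn3 over Cldn4 was 6.45 and 6.83 in Cbfa2t2_KO, 10.7 and 6.99 in H3.3K27M, and 20.3 and 45.9 in H3.3WT. Cldn3 overlaps the gene model Wbscr25, whose reads could not be told apart without strand.

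Over all listed members, 6 of 7 had a promoter window. The one without was Cdh1, so its E-boxes were not looked at. Each of the 6 held at least 1 E-box, which was present in 20.2% of all 32851 windows of the same length. Epcam and Cldn6 held 2 E-boxes each. The GC box GGGCGG was found in 4 of the 6 windows (35.7% of all windows), TATAAA in that of Krt8 alone (13.6%), and TGANTCA in that of Cldn4 alone (7.81%). All motifs were searched on both strands. The 2 TATAAA matches of the Krt8 window, at bases 248 and 250, overlap each other. A match describes letters in a window and is not a measured binding site.

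**Figure D3:**
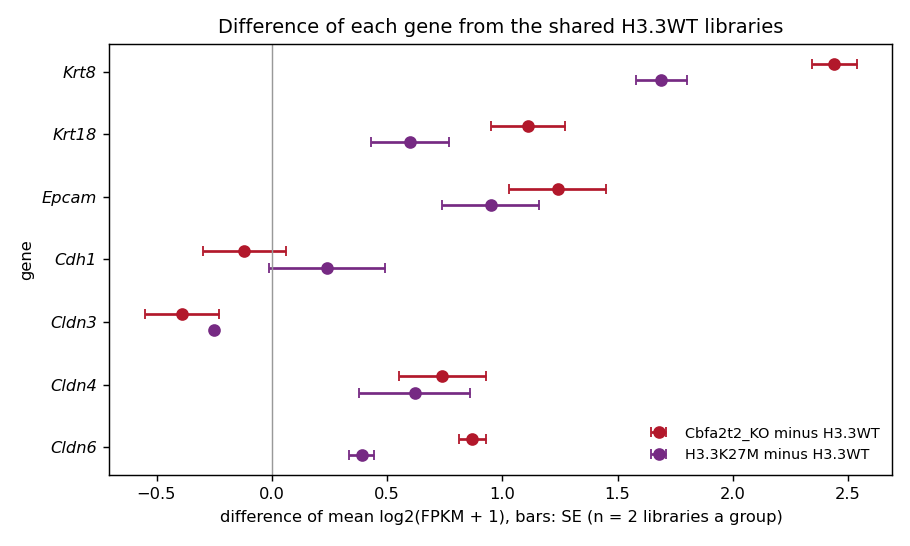
Difference of mean log2(FPKM + 1) from H3.3WT (x axis) for the 7 listed genes, with Cbfa2t2_KO above H3.3K27M in each row; bars are the SE from 2 libraries a group, and both lines share the H3.3WT libraries. Krt8 has the largest difference in both lines, at 2.44 in Cbfa2t2_KO and 1.69 in H3.3K27M, and Cldn3 is below 0 in both.

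Set directly against Cbfa2t2_KO, H3.3K27M was lower without overlap in Krt8, Krt18, Epcam and Cldn6, higher in Cdh1, and overlapped in Cldn3 and Cldn4. Over all 14082 shared genes 30% were lower and 26.1% higher without overlap in this comparison. The ratio of mean FPKM, H3.3K27M over Cbfa2t2_KO, was 0.55 for Krt8, 0.629 for Krt18, 0.711 for Cldn6 and 0.816 for Epcam. The log2 differences were -0.74 ± 0.048 for Krt8, -0.51 ± 0.078 for Krt18, -0.48 ± 0.077 for Cldn6, -0.29 ± 0.082 for Epcam and 0.36 ± 0.21 for Cdh1 (SE, n = 2 each).

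In a limma fit over the genes that averaged 1 FPKM or more, 4 of 6 tested members were called higher in Cbfa2t2_KO than in H3.3WT at an adjusted p of 0.05, and 3 of 6 in H3.3K27M. Over all tested genes 34.6% were called in Cbfa2t2_KO (13.1% as higher) and 26.2% in H3.3K27M (8.42% as higher). In H3.3K27M against Cbfa2t2_KO, 1 of 7 tested members was called, as lower, where 7.8% of all genes were called (4.68% as lower). Cldn4 did not reach the minimum in the fits against H3.3WT. Krt8 reached it through the higher groups alone, and since the members were proposed with these calls known, the counts are not evidence of a direction.

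The wider machinery of epithelial junctions was then examined in 7 lists that leave out the 10 genes above, 197 symbols in all with older names, of which 82 genes were tested in Cbfa2t2_KO against H3.3WT. In Cbfa2t2_KO 16 of the 82 rose and 10 fell, or 19.5% and 12.2%, against 13.1% and 21.5% of all 11626 tested genes. Their median log2 difference was 0.047, against -0.11 for all genes. The count of falls was 2 without Cbfa2t2_KO replicate 2 and 5 without H3.3WT replicate 2. In H3.3K27M 8 of 83 rose and 11 fell, or 9.64% and 13.3%, against 8.42% and 17.8% of all 11623 tested genes, with a median of -0.048 against -0.12. The rises numbered 4 without H3.3K27M replicate 1, 5 without H3.3WT replicate 1 and 3 without H3.3WT replicate 2, and the falls 4 without H3.3K27M replicate 2, 3 without H3.3WT replicate 1 and 2 without H3.3WT replicate 2. Over all genes, leaving out Cbfa2t2_KO replicate 2 or H3.3WT replicate 2 gave 1915 and 2236 calls, against 4028, in Cbfa2t2_KO. Leaving out H3.3K27M replicate 2, H3.3WT replicate 1 or H3.3WT replicate 2 gave 1589, 1206 and 1007 calls, against 3049, in H3.3K27M. Median-of-ratios scaling, which moved the median of all genes to 0.0005 and 0.005, gave 20 higher and 9 lower in Cbfa2t2_KO and 13 higher and 10 lower in H3.3K27M. Of all calls, 37.9% in Cbfa2t2_KO and 32.1% in H3.3K27M were higher with the values as deposited, and 50.8% and 49.0% with that scaling. All calls with that scaling numbered 4095 of 11604 tested genes in Cbfa2t2_KO and 2792 of 11601 in H3.3K27M. More of all genes were thus called higher as well, so nothing is read from the larger counts of list rises. For the genes that follow, each log2 difference is limma's on the log2(FPKM + 1) scale, ± its SE. Each p is Benjamini-Hochberg adjusted across every tested gene. Tjp3, Prss8, Grhl2, Col3a1, Col1a1 and Tagln averaged under 1 FPKM in H3.3WT and reached the minimum of the fit through the higher group alone. Cdh4 in both lines, and Zeb1 and Pdgfrb in Cbfa2t2_KO, reached it through H3.3WT alone. The calls of these genes are given as a description, and the counts and shares of their lists include them.

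Among tight junction and polarity genes, 7 of 29 rose and 2 fell in Cbfa2t2_KO (median -0.036). These are 24.1% and 6.9%, against 13.1% and 21.5% of all tested genes. In H3.3K27M 1 rose and 4 fell (median -0.0091), or 3.45% and 13.8%, against 8.42% and 17.8%. Tjp3, which encodes the junction scaffold ZO-3, stood at 4.59 and 5.46 FPKM in Cbfa2t2_KO, 3.33 and 3.37 FPKM in H3.3K27M, and 1.08 and 0.657 FPKM in H3.3WT. It rose in both lines, with log2 differences of 1.69 ± 0.19 for Cbfa2t2_KO (adjusted p = 0.0011) and, for H3.3K27M, 1.23 ± 0.19 (adjusted p = 0.0041), and was the only gene of the list called higher in H3.3K27M. Both genes for the basolateral polarity proteins LGL1 and LGL2 rose in Cbfa2t2_KO. Llgl1 stood at 55.5 and 60.6 FPKM in Cbfa2t2_KO against 30.9 and 25.3 FPKM in H3.3WT (log2 difference 1.03 ± 0.15, adjusted p = 0.0024). Llgl2 had a log2 difference of 0.99 ± 0.19 (adjusted p = 0.0066, and 0.056 without Cbfa2t2_KO replicate 2). Llgl1 in H3.3K27M, at 34.7 and 24.8 FPKM, overlapped H3.3WT.

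Genes of the PAR polarity complex went both ways. Pard3 stood at 2.56 and 2.23 FPKM in Cbfa2t2_KO against 6.56 and 6.26 FPKM in H3.3WT (log2 difference -1.13 ± 0.17, adjusted p = 0.0027). It was also called lower in H3.3K27M, at 4.37 and 2.42 FPKM (log2 difference -0.79 ± 0.24, adjusted p = 0.043). This second call was lost with median-of-ratios scaling (adjusted p = 0.06) or quantile normalization (0.072). It was also lost without H3.3K27M replicate 2, H3.3WT replicate 1 or H3.3WT replicate 2. Pard6b fell in both lines, by a log2 difference of -0.70 ± 0.14 in the knockout (adjusted p = 0.0084) and of -0.80 ± 0.17 with H3.3K27M (adjusted p = 0.012). Its call was lost without Cbfa2t2_KO replicate 2 (adjusted p = 0.053) and, in H3.3K27M, without H3.3K27M replicate 2 (0.055), H3.3WT replicate 1 (0.076) or H3.3WT replicate 2 (0.082). Pard6g fell in H3.3K27M, at 3.49 and 3.10 FPKM against 7.87 and 8.89 FPKM in H3.3WT (log2 difference -1.13 ± 0.19, adjusted p = 0.0050), and Cbfa2t2_KO at 8.39 and 7.43 FPKM overlapped H3.3WT. Prkcz, which encodes an atypical protein kinase C of this complex and was picked after its values were seen, stood at 4.02 and 4.28 FPKM in Cbfa2t2_KO against 2.66 and 2.28 FPKM in H3.3WT, and rose (adjusted p = 0.036). Pard6a and Prkci did not pass in either line. Magi1, a junction scaffold, fell in H3.3K27M with a log2 difference of -0.95 ± 0.23 (adjusted p = 0.019), a call lost without H3.3K27M replicate 2 (0.087), H3.3WT replicate 1 (0.12) or H3.3WT replicate 2 (0.061). Of the other claudin-family symbols, 5 were listed and 2 were tested. Cldn12 overlapped H3.3WT in both lines. Cldnd1, a claudin-domain gene, stood at 8.84 and 6.62 FPKM in Cbfa2t2_KO and 7.90 and 7.18 FPKM in H3.3K27M, against 4.61 and 5.52 FPKM in H3.3WT, and did not pass (adjusted p = 0.072 and 0.085).

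Among adherens junction genes, 2 of 17 rose and 5 fell in Cbfa2t2_KO (median -0.013). These are 11.8% and 29.4%, against 13.1% and 21.5% of all tested genes. In H3.3K27M 1 rose and 3 fell (median -0.058), or 5.88% and 17.6%, against 8.42% and 17.8%. Jup, which encodes plakoglobin, a catenin of adherens junctions and desmosomes, stood at 21.8 and 23.8 FPKM in Cbfa2t2_KO, 11.8 and 10.0 FPKM in H3.3K27M, and 8.52 and 9.19 FPKM in H3.3WT. It rose in Cbfa2t2_KO by 1.27 ± 0.15 (adjusted p = 0.0012). Ctnna1, which encodes the alpha-catenin that links cadherins to actin, stood at 76.8 and 63.6 FPKM in Cbfa2t2_KO, 57.8 and 49.0 FPKM in H3.3K27M, and 34.7 and 36.2 FPKM in H3.3WT. It rose by 0.96 ± 0.15 in the knockout (adjusted p = 0.0026) and, for H3.3K27M, by 0.57 ± 0.17 (adjusted p = 0.036). The H3.3K27M call was lost without H3.3K27M replicate 1 (adjusted p = 0.096), H3.3WT replicate 1 (0.18) or H3.3WT replicate 2 (0.15). Cdh2, the neural cadherin, stood at 9.02 and 6.68 FPKM in Cbfa2t2_KO, 7.29 and 4.56 FPKM in H3.3K27M, and 5.84 and 6.20 FPKM in H3.3WT, and did not pass in either line (adjusted p = 0.22 and 0.89).

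Cdh4, which encodes R-cadherin, fell in both lines, at 0.837 and 0.70 FPKM in Cbfa2t2_KO and 0.895 and 0.467 FPKM in H3.3K27M, against 2.09 and 2.13 FPKM in H3.3WT (adjusted p = 0.0069 and 0.012). In H3.3K27M this call was lost without H3.3K27M replicate 2 (adjusted p = 0.057), H3.3WT replicate 1 (0.058) or H3.3WT replicate 2 (0.061). Nectins are immunoglobulin-like adhesion proteins of adherens junctions. Nectin1 fell in Cbfa2t2_KO with a log2 difference of -0.80 ± 0.17 (adjusted p = 0.0094, and 0.06 without Cbfa2t2_KO replicate 2). Nectin2 fell in H3.3K27M, at 52.0 and 49.9 FPKM against 93.2 and 99.4 FPKM in H3.3WT (log2 difference -0.90 ± 0.16, adjusted p = 0.0060, and 0.059 without H3.3WT replicate 2). Nectin2 was also called lower in Cbfa2t2_KO, at 62.5 and 70.9 FPKM (log2 difference -0.52 ± 0.14, adjusted p = 0.021). That call was lost with median-of-ratios scaling (adjusted p = 0.10), and without Cbfa2t2_KO replicate 1, Cbfa2t2_KO replicate 2 or H3.3WT replicate 2. Nectin1 did not pass in H3.3K27M (adjusted p = 0.18), and Nectin3 passed in neither line (adjusted p = 0.10 and 0.82). Vcl, which encodes vinculin, fell, with log2 differences of -0.74 ± 0.21 for Cbfa2t2_KO (adjusted p = 0.028) and -1.02 ± 0.28 for H3.3K27M (adjusted p = 0.031). Its call was lost in Cbfa2t2_KO without Cbfa2t2_KO replicate 1 (adjusted p = 0.061), Cbfa2t2_KO replicate 2 (0.15) or H3.3WT replicate 2 (0.15), and in H3.3K27M without H3.3K27M replicate 2 (0.15) or H3.3WT replicate 2 (0.19). It was also lost in Cbfa2t2_KO in the fit of all 6 libraries (adjusted p = 0.067) and in H3.3K27M with quantile normalization (0.057).

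Of 12 tested genes of desmosomes and hemidesmosomes, 1 rose and 2 fell in each line (median -0.0078 in Cbfa2t2_KO and -0.20 in H3.3K27M). These are 8.33% and 16.7%, against 13.1% and 21.5% of all tested genes in Cbfa2t2_KO and 8.42% and 17.8% in H3.3K27M. The gene that rose was Pkp2 in both, which encodes plakophilin 2, a linker of desmosomal cadherins to filaments. Pkp2 stood at 21.3 and 18.7 FPKM in Cbfa2t2_KO, 26.1 and 21.6 FPKM in H3.3K27M, and 11.8 and 10.2 FPKM in H3.3WT (adjusted p = 0.0072 in Cbfa2t2_KO, and 0.0057 in H3.3K27M, or 0.052 there without H3.3WT replicate 2). Plec, which encodes the filament linker plectin, fell in both, at 6.23 and 6.63 FPKM in Cbfa2t2_KO and 7.95 and 4.84 FPKM in H3.3K27M, against 17.3 and 11.3 FPKM in H3.3WT (adjusted p = 0.0091 and 0.022). Its call was lost without Cbfa2t2_KO replicate 2 (adjusted p = 0.053), and in H3.3K27M without H3.3K27M replicate 2 (0.12) or H3.3WT replicate 1 (0.15). The integrin gene Itga6 fell in Cbfa2t2_KO (adjusted p = 0.024), a call lost without Cbfa2t2_KO replicate 2 (0.13) or H3.3WT replicate 2 (0.10), and in the fit of all 6 libraries (0.053). Cd151 fell in H3.3K27M (adjusted p = 0.017), a call lost without H3.3K27M replicate 2 (0.064), H3.3WT replicate 1 (0.063) or H3.3WT replicate 2 (0.14).

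**Figure D4:**
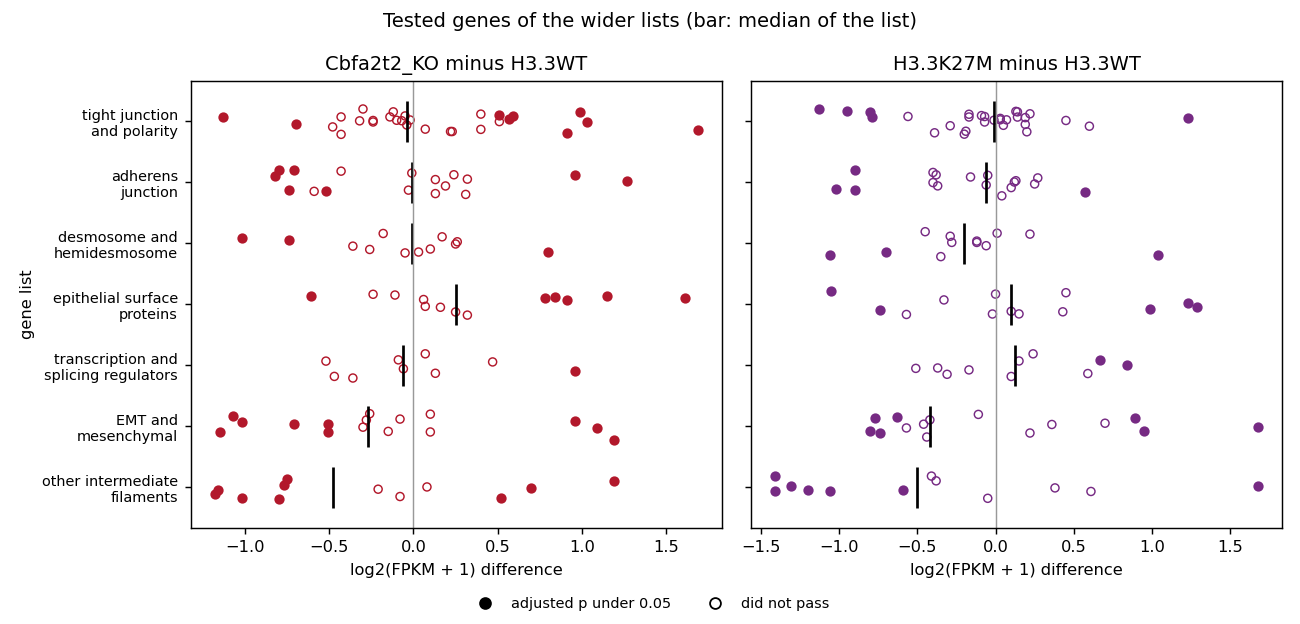
Log2(FPKM + 1) difference from H3.3WT (x axis) of each tested gene in 7 lists (y axis). Cbfa2t2_KO is at the left and H3.3K27M at the right. The lists are the wider epithelial lists without other keratins and other claudins, plus EMT and mesenchymal genes and other intermediate filaments. Filled points have an adjusted p under 0.05 and black bars are list medians. Each list holds genes on both sides of 0, and Tjp3, at 1.69 in Cbfa2t2_KO and 1.23 in H3.3K27M, is the farthest right among tight junction and polarity genes.

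Epithelial surface proteins had 5 of 13 genes higher and 1 lower in Cbfa2t2_KO (median 0.25). These are 38.5% and 7.69%, against 13.1% and 21.5% of all tested genes. In H3.3K27M 3 were higher and 2 lower (median 0.10), or 23.1% and 15.4%, against 8.42% and 17.8%. Folr1, a folate receptor gene, stood at 23.6 and 23.6 FPKM in Cbfa2t2_KO against 9.01 and 5.45 FPKM in H3.3WT, and rose by 1.61 ± 0.22 (adjusted p = 0.0017). St14, which encodes the membrane protease matriptase, rose in Cbfa2t2_KO by 1.15 ± 0.18 (adjusted p = 0.0029). Its levels were 6.37 and 7.09 FPKM in Cbfa2t2_KO, 4.14 and 3.39 FPKM in H3.3K27M, and 2.75 and 2.22 FPKM in H3.3WT, so H3.3K27M was also above H3.3WT without overlap, but did not pass (adjusted p = 0.12). Prss8, the gene of prostasin, a protease of the same cascade, rose in H3.3K27M by 1.23 ± 0.17 (adjusted p = 0.0027). It stood at 1.28 and 1.55 FPKM in Cbfa2t2_KO, 2.26 and 1.95 FPKM in H3.3K27M, and 0.379 and 0.268 FPKM in H3.3WT. Both lines were above H3.3WT without overlap, and in Cbfa2t2_KO the gene was below the minimum of the fit. Spint1, which encodes an inhibitor of matriptase, fell in both lines, at 28.5 and 29.0 FPKM in Cbfa2t2_KO and 26.7 and 25.9 FPKM in H3.3K27M, against 43.0 and 45.9 FPKM in H3.3WT (adjusted p = 0.011 and 0.013). Its call was lost in Cbfa2t2_KO without Cbfa2t2_KO replicate 1 (adjusted p = 0.051), Cbfa2t2_KO replicate 2 (0.058) or H3.3WT replicate 2 (0.052), and in H3.3K27M without H3.3WT replicate 1 (0.068) or H3.3WT replicate 2 (0.10). Prom1 and Cd24a, surface markers that neural progenitors share with epithelia, were also higher. Prom1 rose in both lines (adjusted p = 0.0097 for Cbfa2t2_KO and 0.0074 for H3.3K27M, with 0.064 in H3.3K27M without H3.3WT replicate 2). Cd24a stood at 74.0 and 80.2 FPKM in H3.3K27M against 25.1 and 38.2 FPKM in H3.3WT, and rose by 1.29 ± 0.21 (adjusted p = 0.0049). It was also called higher in Cbfa2t2_KO, at 66.2 and 47.6 FPKM (log2 difference 0.84 ± 0.23, adjusted p = 0.025). The Cbfa2t2_KO call was lost without Cbfa2t2_KO replicate 1 or H3.3WT replicate 1. The receptor gene Erbb2 fell in H3.3K27M with a log2 difference of -1.05 ± 0.21 (adjusted p = 0.010), a call lost without H3.3WT replicate 1 (0.061) or H3.3WT replicate 2 (0.062).

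The tested regulators of epithelial genes were too few for their share of calls to be read as a result. In Cbfa2t2_KO 1 of 9 passed, Esrp1, an epithelial splicing factor, which rose (11.1%, against 13.1% of all tested genes called higher). Esrp1 stood at 11.5 and 10.7 FPKM in Cbfa2t2_KO, 7.78 and 5.12 FPKM in H3.3K27M, and 4.85 and 5.63 FPKM in H3.3WT, a rise of 0.96 ± 0.17 in Cbfa2t2_KO (adjusted p = 0.0045). In H3.3K27M 2 of 10 passed, Grhl2 and Elf3, and both rose (20%, against 8.42% of all tested genes called higher). Grhl2 reached the minimum of the fit through H3.3K27M alone. Grhl2, a Grainyhead factor that activates Cdh1 and claudin genes in mouse epithelia, stood at 2.05 and 1.60 FPKM in H3.3K27M and 0.593 and 0.554 FPKM in H3.3WT, a rise of 0.84 ± 0.17 (adjusted p = 0.011). In Cbfa2t2_KO Grhl2 stood at 1.24 and 1.26 FPKM, also above H3.3WT, and was below the minimum of the fit. That it was tested in H3.3K27M alone follows from this minimum. Elf3, an ETS factor of epithelia, stood at 4.18 and 4.12 FPKM in H3.3K27M against 2.30 and 2.18 FPKM in H3.3WT (adjusted p = 0.029). The Grhl2 call depended on H3.3WT replicate 1 (adjusted p = 0.061 without it) and H3.3WT replicate 2 (0.068 without it). That of Elf3 was lost without H3.3K27M replicate 1 (0.059), H3.3K27M replicate 2 (0.072), H3.3WT replicate 1 (0.12) or H3.3WT replicate 2 (0.15). Ovol2 overlapped in both comparisons, and Ovol1 was in neither table. Esrp2 stood at 0.897 and 1.07 FPKM in Cbfa2t2_KO, 1.34 and 0.858 FPKM in H3.3K27M, and 0.762 and 0.612 FPKM in H3.3WT. Both lines were above H3.3WT in Esrp2 without overlap, but it was below the minimum of the fits against H3.3WT.

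The genes of the SNAI and ZEB repressors were examined next. Zeb1 stood at 0.817 and 0.598 FPKM in Cbfa2t2_KO, 0.979 and 0.663 FPKM in H3.3K27M, and 1.29 and 1.55 FPKM in H3.3WT. It fell in Cbfa2t2_KO with a log2 difference of -0.51 ± 0.16 (adjusted p = 0.045), but not with a pseudocount of 0.1 (adjusted p = 0.053), with no minimum level (0.056), with median-of-ratios scaling (0.052), without Cbfa2t2_KO replicate 1 (0.067) or without Cbfa2t2_KO replicate 2 (0.18), and quantile normalization gave 0.05. In H3.3K27M Zeb1 did not pass (adjusted p = 0.12). Zeb2 stood at 0.363 and 0.192 FPKM in Cbfa2t2_KO, 0.915 and 0.579 FPKM in H3.3K27M, and 0.687 and 0.732 FPKM in H3.3WT. It was lower without overlap in Cbfa2t2_KO, overlapped in H3.3K27M, and was below the minimum of the fit. Snai2 was in neither table. Snai1 stood at 4.02 and 5.44 FPKM in Cbfa2t2_KO, 3.22 and 2.90 FPKM in H3.3K27M, and 5.43 and 4.60 FPKM in H3.3WT, and did not pass in either line (adjusted p = 0.78 and 0.059, with 0.049 in H3.3K27M without the trend term). Picked from the same list after their values were seen, Twist1, another EMT factor, stood at 10.3 to 20.4 FPKM over all libraries and fell in Cbfa2t2_KO (adjusted p = 0.013), and Tcf3, which encodes an E-box binding factor, stood at 31 to 57.2 FPKM and fell in H3.3K27M (adjusted p = 0.027).

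Mesenchymal genes did not move together. In the list with the EMT factors, 3 of 16 rose and 6 fell in Cbfa2t2_KO (median -0.27). These are 18.8% and 37.5%, against 13.1% and 21.5% of all tested genes. In H3.3K27M 3 of 15 rose and 4 fell (median -0.42), or 20% and 26.7%, against 8.42% and 17.8%. Of the rises, Col1a1 and Col3a1 in Cbfa2t2_KO and Col3a1 and Tagln in H3.3K27M reached the minimum of the fit through the higher group alone. Among the rises only Vim, described next, averaged 1 FPKM or more in H3.3WT. Of the falls, Zeb1, Twist2 and Pdgfrb in Cbfa2t2_KO reached the minimum through H3.3WT alone. The shares are therefore not read as a result. Vim, which encodes vimentin, the intermediate filament of mesenchymal and neural progenitor cells, stood at 27.3 and 26.5 FPKM in Cbfa2t2_KO, 34.6 and 41.8 FPKM in H3.3K27M, and 10.3 and 12.1 FPKM in H3.3WT. It rose by 1.19 ± 0.15 in the knockout (adjusted p = 0.0015) and by 1.68 ± 0.18 with H3.3K27M (adjusted p = 0.0013). The ratio of Vim to Krt8 was 3.25 and 3.09 in Cbfa2t2_KO, 7.71 and 8.63 in H3.3K27M, and 11.9 and 19.1 in H3.3WT. The collagen gene Col3a1 also rose in both lines (adjusted p = 0.0034 and 0.0072, with 0.053 in H3.3K27M without H3.3WT replicate 2), at no more than 2.18 FPKM. Mmp2, a gelatinase gene, fell, at 11 and 11.8 FPKM in Cbfa2t2_KO and 17.0 and 14.1 FPKM in H3.3K27M, against 27.6 and 25.6 FPKM in H3.3WT (adjusted p = 0.0015 and 0.017). Col1a1, another collagen gene, rose in Cbfa2t2_KO, at 1.81 and 1.76 FPKM against 0.339 and 0.285 FPKM in H3.3WT (adjusted p = 0.0019). The smooth muscle actin gene Acta2 fell in Cbfa2t2_KO, at 2 and 1.35 FPKM against 3.21 and 6.35 FPKM in H3.3WT (adjusted p = 0.021). This call was lost without Cbfa2t2_KO replicate 2 or H3.3WT replicate 2. With H3.3K27M, Acta2 was above H3.3WT without overlap, at 7.71 and 8.32 FPKM, but did not pass (adjusted p = 0.086). It passed there with median-of-ratios scaling (adjusted p = 0.046) and with quantile normalization (0.049). In H3.3K27M Tagln rose (adjusted p = 0.019, with 0.11 without H3.3WT replicate 1 and 0.059 without H3.3WT replicate 2). Col5a1 fell there (adjusted p = 0.04), a call lost without H3.3K27M replicate 2 (0.18), H3.3WT replicate 1 (0.061) or H3.3WT replicate 2 (0.24), and also with median-of-ratios scaling (0.054) or quantile normalization (0.061). The receptor gene Pdgfrb fell in both lines as well (adjusted p = 0.0031 and 0.028). In H3.3K27M the call of Mmp2 was lost without H3.3K27M replicate 2 (adjusted p = 0.070), H3.3WT replicate 1 (0.11) or H3.3WT replicate 2 (0.083), and that of Pdgfrb without H3.3K27M replicate 2 (0.12), H3.3WT replicate 1 (0.13) or H3.3WT replicate 2 (0.096).

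Other intermediate filament genes, a list that also holds Vim and the lamins, were more often lower than higher. In Cbfa2t2_KO 3 of 12 rose and 6 fell, or 25% and 50%, against 13.1% and 21.5% of all tested genes (median -0.48 against -0.11). In H3.3K27M 1 rose and 6 fell, or 8.33% and 50%, against 8.42% and 17.8% (median -0.50 against -0.12). Those that fell were Ina, Nefh, Nefm, Nefl, Nes and Plec in each line, of which all but Plec encode filaments of neurons or neural progenitors. Nefl had adjusted p = 0.012 in Cbfa2t2_KO and 0.047 in H3.3K27M, and Nes 0.0097 and 0.003. The calls of Nefl and Nes were not followed in the alternatives, nor was the share of this list. Ina, which encodes alpha-internexin, stood at 14.0 and 13.4 FPKM in Cbfa2t2_KO and 15.0 and 10.0 FPKM in H3.3K27M, against 31.5 and 32.4 FPKM in H3.3WT (adjusted p = 0.0012 and 0.0043). Nefh, the heavy neurofilament gene, stood at 2.77 and 2.79 FPKM in Cbfa2t2_KO and 2.91 and 1.67 FPKM in H3.3K27M, against 7.10 and 8.10 FPKM in H3.3WT (adjusted p = 0.0023 and 0.0047). Nefm, the medium neurofilament gene, fell in H3.3K27M with a log2 difference of -1.41 ± 0.22 (adjusted p = 0.0041). Its call in Cbfa2t2_KO (adjusted p = 0.027) was lost without Cbfa2t2_KO replicate 1 (0.067), Cbfa2t2_KO replicate 2 (0.13) or H3.3WT replicate 2 (0.16). The lamin gene Lmnb1 rose in Cbfa2t2_KO, at 138 and 126 FPKM against 86.6 and 75.2 FPKM in H3.3WT (adjusted p = 0.0077, and 0.05 without H3.3WT replicate 2). Lmna rose there as well (adjusted p = 0.047), a call lost without any 1 of the 4 libraries (0.081 to 0.19), and with no minimum level (0.05).

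Directly between the lines, 2 of 84 genes of the wider epithelial lists were higher and 7 lower in H3.3K27M than in Cbfa2t2_KO, or 2.38% and 8.33%, against 3.12% and 4.68% of 11601 tested genes. Those lower included Folr1 (log2 difference -1.51 ± 0.21, adjusted p = 0.010), Jup (-1.01 ± 0.16, adjusted p = 0.014), Pard6g (-1.05 ± 0.17, adjusted p = 0.015), Llgl1 (-0.96 ± 0.19, adjusted p = 0.027) and Llgl2 (-0.85 ± 0.19, adjusted p = 0.034). Without Cbfa2t2_KO replicate 2 none of these passed, and 29 genes in all were called in place of 905. Without Cbfa2t2_KO replicate 1 or H3.3K27M replicate 2, 162 and 161 were called in all, and 1 list gene was lower in each case.

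Markers of other epithelia were looked at beside the keratins. Of 11 trophoblast markers, which include Krt7, 5 were in both tables, with a sum of 14.2 and 15.7 FPKM in Cbfa2t2_KO, 21.0 and 21.1 FPKM in H3.3K27M, and 21.5 and 19.6 FPKM in H3.3WT, and Cdx2, Hand1 and Prl3d1 were in neither. Of 12 endoderm markers 4 were in both, with a sum of 7.06 and 7.58 FPKM in Cbfa2t2_KO, 5.69 and 6.08 FPKM in H3.3K27M, and 9.89 and 10.2 FPKM in H3.3WT, and Sox17, Afp and Ttr were in neither. Of 9 surface ectoderm markers 3 were in both, at 8.81 and 8.41 FPKM in Cbfa2t2_KO, 8.93 and 8.95 FPKM in H3.3K27M, and 8.57 and 9.88 FPKM in H3.3WT. In these 3 lists no Cbfa2t2_KO or H3.3K27M library was above the highest H3.3WT library. Choroid plexus and ependymal markers (4 of 9) summed to 48.0 and 47.3 FPKM in Cbfa2t2_KO, 37.9 and 42.8 FPKM in H3.3K27M, and 55.3 and 36.8 FPKM in H3.3WT. Members of this sum went opposite ways in Cbfa2t2_KO. Folr1, described above, was higher than in H3.3WT, as was Clic6 (1.277 and 1.335 against 0.222 and 0.568 FPKM). Otx2 was lower (20.4 and 19.9 against 42.9 and 28.4 FPKM), and Foxj1 overlapped. Mesenchymal markers (6 of 10) summed to 21.3 and 22.7 FPKM in Cbfa2t2_KO, 26.5 and 27.9 FPKM in H3.3K27M, and 28.1 and 32.4 FPKM in H3.3WT. Neuronal markers (5 of 10), nearly all from Tubb3, summed to 136 and 151 FPKM in Cbfa2t2_KO, 77.5 and 82.2 FPKM in H3.3K27M, and 79.4 and 77.9 FPKM in H3.3WT, and their part in the results was not tested. The leukocyte list (1 of 7 markers, Cd68) stood at 3.82 and 4.37 FPKM in Cbfa2t2_KO, 2.53 and 2.60 FPKM in H3.3K27M, and 1.24 and 1.18 FPKM in H3.3WT, and its part was not tested. No library exceeded 12.2 FPKM in the endothelial sum (2 of 7).

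Over the 6 libraries, the 5 genes outside the list whose log2(FPKM + 1) profile was most like that of Krt8 by Pearson's r, among 3739 genes compared, were Tubb2b, Supt3, Ttc5, Mrpl45 and Tes, with r from 0.9958 to 0.9993. Tubb2b, a neural beta-tubulin gene, stood at 124 and 130 FPKM in Cbfa2t2_KO, 89.7 and 93.1 FPKM in H3.3K27M, and 39.9 and 37.2 FPKM in H3.3WT. Tes, which encodes testin, a protein of focal adhesions and cell contacts, stood at 7.46 and 7.06 FPKM in Cbfa2t2_KO, 5.06 and 4.60 FPKM in H3.3K27M, and 1.90 and 1.75 FPKM in H3.3WT. Among the members, r with Krt8 was 0.981 for Epcam, 0.952 for Krt18, 0.949 for Cldn6, 0.925 for Cldn4, -0.076 for Cdh1 and -0.867 for Cldn3. These correlations describe 6 libraries in 3 groups, share the group order, and carry no test.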

How the data were processed

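The authors deposited FPKM per gene in 2 tables, of 14431 and 14318 genes, each with 4 libraries. Per the submitters' processing notes, Trim Galore, HISAT2, StringTie, DESeq and GRCm38 were used; versions, roles, annotation release and library strand are not given in the sources used here. Groups came from the genotype labels. Replicate numbers follow the order of records or columns and pair nothing. Genes were keyed by Ensembl ID, and GENCODE vM21 (14646 of 14667 IDs) gave positions.

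Tests used limma 3.58.1 in R 4.3.3 on log2(FPKM + 1) of genes that averaged 1 FPKM or more (eBayes with trend, two-sided, Benjamini-Hochberg, threshold 0.05), each line against H3.3WT over 4 libraries and the lines against each other over 6. limma pools the spread over genes; an exact permutation test of 2 against 2 libraries cannot go below 0.333. The procedure was tested on simulated data. Members, lists and tests were chosen with earlier results of these data known. Named list genes were up to 3 rises and 3 falls per list, past the threshold and without overlap, beside 11 fixed regulators and markers. Alternatives covered pseudocount, filter, scaling, trend, 6-library fits and leaving out each library. Figures used matplotlib 3.10.9 in Python 3.11.15.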

Additional observations from a re-analysis of the deposited data

How the results depend on the processing

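Leaving out 1 library at a time, which assumes that a lone library varies like the others, gave 1915 to 3038 calls in Cbfa2t2_KO against H3.3WT (4028 with all libraries), 1007 to 2790 in H3.3K27M against H3.3WT (3049) and 29 to 786 in H3.3K27M against Cbfa2t2_KO (905). In the wider epithelial lists it gave 11 to 13 higher (16) and 2 to 12 lower (10) in Cbfa2t2_KO against H3.3WT, 3 to 7 higher (8) and 2 to 12 lower (11) in H3.3K27M against H3.3WT, and 0 to 1 higher (2) and 0 to 9 lower (7) between the lines. Leaving out a library cannot make separate groups overlap, so the counts of members without overlap could only stay or grow. Those counts are therefore not a measure of stability. A minimum of 5 FPKM, which leaves fewer genes tested, gave 10, 4 and 1 higher list genes in the 3 comparisons. Median-of-ratios scaling and quantile normalization each gave 13 higher in H3.3K27M against H3.3WT. Of all calls there, 49.0% and 50.4% were higher, against 32.1% as deposited. Between the lines, median-of-ratios scaling gave 11 lower, with 1017 calls over all genes. The cause was not tested. Of list genes named and called, 18 of 32 in Cbfa2t2_KO and 8 of 28 in H3.3K27M against H3.3WT passed in every alternative that tested them, and 0 of 9 between the lines. No paired analysis was possible because the labels give no replicate numbers shared between groups. Depth is unknown, and genes near 1 FPKM, Cldn4 and Zeb1 among them, are measured least precisely.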
